A study of Sus scrofa with 14 samples.

Results

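The genes described here are 7 genes that mark macrophages and related myeloid cells, measured in the endometrium of pseudopregnant gilts (young female pigs). Members were all probe sets of an Affymetrix porcine array whose single annotated symbol is MRC1, CD163, AIF1, TYROBP, CD209, C1QC or GP91-PHOX. This gave 8 probe sets, since CD163 has 2, out of 23935 that measure pig transcripts, and the 7 genes are among 6765 genes named there. All 8 probe sets were bright enough to be tested. The genes were chosen by their difference between the days: earlier analyses of these arrays had shown them higher at day 15 than at day 13, above all in estrogen gilts. The day comparisons below are therefore a description: no p of a member is printed for them, and counts of calls stand beside those over all probe sets with nothing read from them.

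Macrophages enter the uterine lining from the blood as monocytes, clear dying cells and secretions, and take part in remodelling the tissue around the time when embryos attach. MRC1 and CD163 are surface receptors of tissue-resident macrophages, while CD209 is a lectin of macrophages and dendritic cells. C1QC is a chain of complement C1q, which macrophages make themselves. TYROBP carries signals of surface receptors into the cell, and AIF1 acts inside it. GP91-PHOX (also called CYBB or NOX2) is the catalytic subunit of the oxidase with which phagocytes make superoxide. No single gene of the 7 is restricted to macrophages: natural killer cells also carry TYROBP, and neutrophils also carry GP91-PHOX.

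All gilts were cross bred cyclic gilts of 8-10 months, and all endometrium was pseudopregnant. Estrogen or corn oil had been given at the start of the second estrus and again 24 hours later. The estrogen groups are the endocrine disrupted ones, and the gilts without estrogen are called control gilts here. Uteri were flushed with 20 mL of saline at day 13 or 15 of pseudopregnancy, which is the window of attachment in a pregnant pig, and the endometrium was snap-frozen. Day 13 was represented by 4 gilts of either treatment and day 15 by 3 of either, each with its own array and labelled a biological replicate. No group was pregnant, so the samples hold no embryo. Estrogen was given early in the cycle and the tissue was taken much later, so the comparison is of a delayed effect.

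Values are log2(signal + 16), where signal is the array intensity of a probe set as deposited, scaled to the same trimmed mean of 500.1 on each array. A log2 difference of 1 is a doubling, but the added 16 makes the differences of dim probe sets smaller. The number of arrays limits the precision. Levels of different genes are not compared, because probe sets bind with different strength. In bulk tissue, fewer cells of a type and less RNA per cell cannot be told apart.

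In 3 arrays, the median correlation with the other arrays was 0.86 to 0.88, against 0.93 to 0.95 for the remaining 11. They are replicate 1 of control day 13, replicate 3 of control day 15 and replicate 2 of estrogen day 15, and the members' results and the list medians that rest on them are given with and without them. The stated tissue matched its markers on all arrays: EPCAM and CDH1 of epithelium averaged 13.69 to 13.71 and 12.59 to 12.94 in the 4 groups, and DCN of stromal fibroblasts 13.19 to 13.46. CD68, CSF1R and ADGRE1, which would define macrophages more narrowly, were looked up for the gene lists below. No value of theirs is given singly, so whether these narrower markers differed between the days is not shown here.

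MRC1, the mannose receptor, separated the days in both treatments. In control gilts it measured 7.22, 6.91, 7.68 and 6.98 at day 13 and 8.70, 9.75 and 8.34 at day 15. In estrogen gilts it measured 7.30, 6.57, 7.13 and 7.56 at day 13 and 9.28, 9.16 and 9.86 at day 15. Every day 15 array lay above every day 13 array, whichever the treatment. The day 15 mean was 3.33-fold the day 13 mean in control gilts (log2 difference 1.73 ± 0.34 SE) and 4.89-fold in estrogen gilts (2.29 ± 0.34 SE). The order of the group means was estrogen day 15 (9.43 ± 0.37 SD, n = 3), control day 15 (8.93 ± 0.73 SD, n = 3), control day 13 (7.20 ± 0.35 SD, n = 4) and estrogen day 13 (7.14 ± 0.42 SD, n = 4). The first 2 overlapped, as did the last 2.

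CD163, the scavenger receptor for haemoglobin bound to haptoglobin, had the narrowest spread of the 7 genes, with a pooled SD within groups of 0.31. On its brighter probe set it measured 7.92, 7.36, 8.17 and 8.16 in control gilts at day 13, and 8.82, 8.73 and 9.43 at day 15. In estrogen gilts the values were 7.88, 7.79, 7.45 and 8.01, then 8.79, 8.64 and 9.03. The days did not overlap in either treatment, and the differences were of similar size: 1.09 ± 0.24 (SE) in control and 1.04 ± 0.24 (SE) in estrogen gilts. The highest value of all 14 was on control day 15 replicate 3, an array on which the other 6 genes each had the lowest value of their group.

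The dimmer CD163 probe set did not separate the days. It measured 6.39, 5.60, 7.15 and 7.17, then 6.27, 7.03 and 7.12 in control gilts. The estrogen arrays gave 6.66, 5.78, 6.27 and 6.83, then 6.91, 6.80 and 6.63. All 4 groups overlapped, and 4 of the 14 values lay under 6.35, the mean level below which a probe set was left out as dim. The differences between the days were 0.23 ± 0.38 (SE) in control and 0.40 ± 0.38 (SE) in estrogen gilts. The CD163 pair of probe sets correlated with r = 0.58 over the 14 arrays, as a description. Which of them follows the CD163 message more closely was not tested.

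CD209 showed the same order of days, with 1 exception. Control gilts gave 6.40, 6.72, 6.96 and 5.60 at day 13 and 8.32, 9.25 and 6.60 at day 15. Estrogen gilts gave 6.82, 6.92, 7.48 and 7.23 at day 13 and 9.37, 8.60 and 8.74 at day 15. Control day 15 replicate 3 (6.60) lay among the day 13 arrays, and differed by -2.19 from the mean of the others in its group. In control gilts the days differed by 1.64 ± 0.49 (SE) with that array and by 2.36 ± 0.41 (SE) without the 3 arrays, or 5.13-fold. In estrogen gilts the difference was 1.79 ± 0.49 (SE), or 3.46-fold, and 1.94 ± 0.39 (SE) without them.

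**Figure D1:**
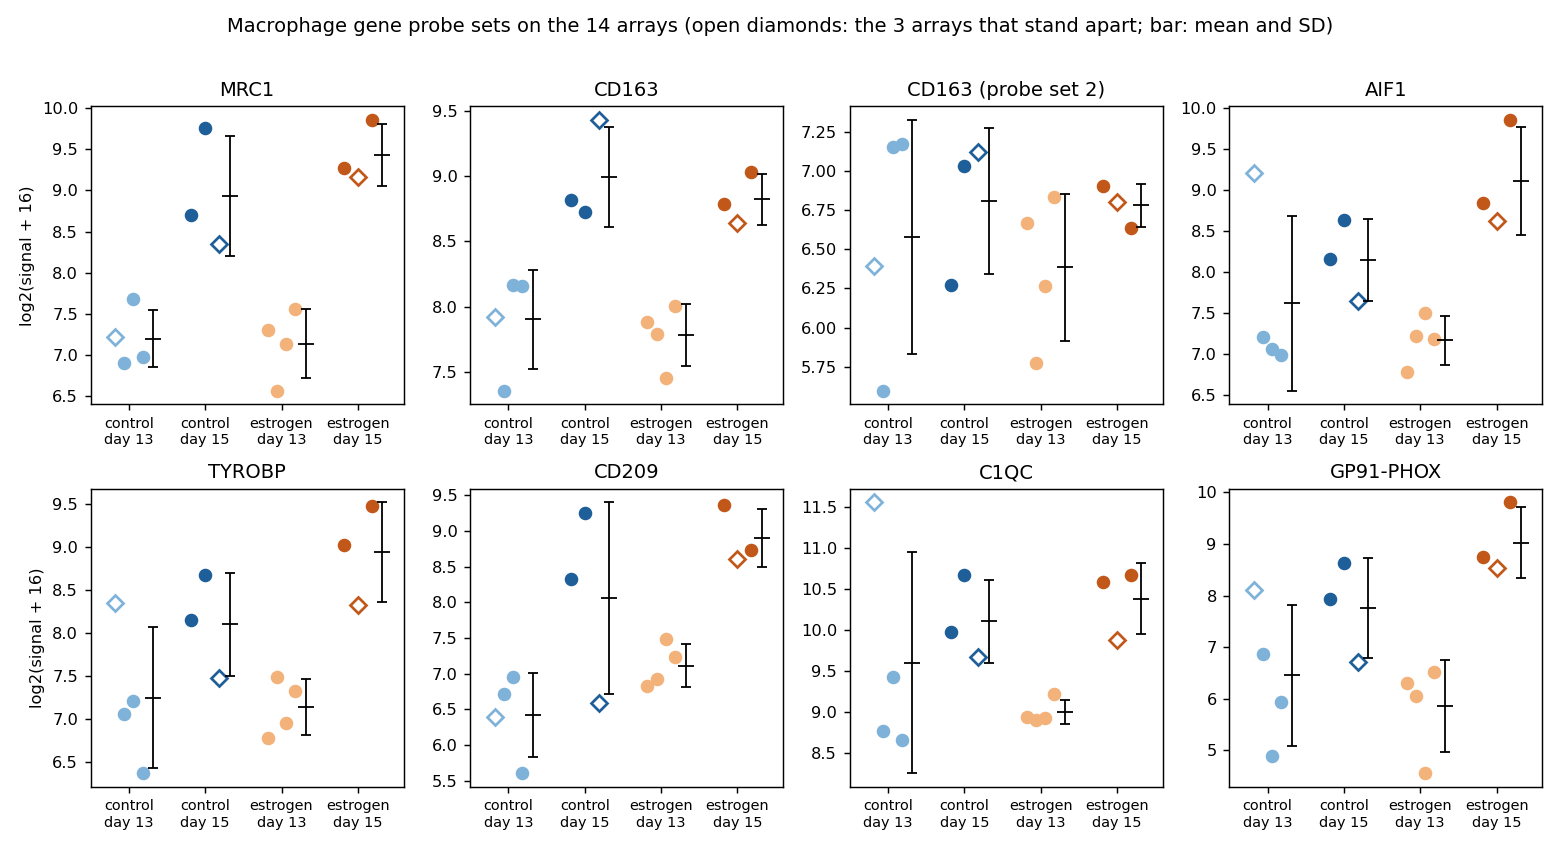
Each point is the log2(signal + 16) of 1 probe set on 1 array, by treatment and day, with a bar for the mean and SD of the group (n = 3 or 4); open diamonds are the 3 arrays that stand apart. For MRC1 and the first CD163 probe set, all day 15 arrays lie above all day 13 arrays. The open diamond among the control day 13 arrays is the highest of its group for AIF1, TYROBP, C1QC and GP91-PHOX.

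TYROBP is the adaptor that carries signals from activating receptors of myeloid and natural killer cells. It measured 8.36, 7.06, 7.22 and 6.37 in control gilts at day 13 and 8.16, 8.68 and 7.48 at day 15. In estrogen gilts it measured 6.78, 7.49, 6.96 and 7.33, then 9.02, 8.33 and 9.47. The days overlapped in control gilts through replicate 1 of day 13 (8.36), and did not overlap in estrogen gilts. The difference between the days was 0.85 ± 0.42 (SE) in control gilts and 1.53 ± 0.31 (SE) without the 3 arrays. In estrogen gilts it was 1.80 ± 0.42 (SE), or 3.48-fold.

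AIF1 encodes an actin-binding protein of macrophages and microglia, known as IBA1. Its control values were 9.20, 7.21, 7.07 and 6.99 at day 13 and 8.16, 8.64 and 7.64 at day 15, so that replicate 1 of day 13 exceeded every control array of day 15. Its estrogen values were 6.78, 7.22, 7.50 and 7.19 at day 13 and 8.84, 8.62 and 9.85 at day 15. The days stood apart in estrogen gilts, with a difference of 1.93 ± 0.48 (SE), or 3.81-fold. In control gilts the difference was 0.53 ± 0.48 (SE), and 1.31 ± 0.30 (SE) without the 3 arrays.

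C1QC repeated this arrangement. Control gilts gave 11.56, 8.77, 9.42 and 8.66 at day 13 and 9.98, 10.67 and 9.68 at day 15. The value of 11.56, again on replicate 1, was the highest of all 14 arrays. Estrogen gilts gave 8.94, 8.91, 8.93 and 9.22 at day 13, close together, and then 10.58, 9.88 and 10.68 without overlap. The control difference between the days was 0.51 ± 0.53 (SE) with all arrays and 1.37 ± 0.25 (SE) without the 3, and the estrogen difference was 1.38 ± 0.53 (SE) with all arrays.

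GP91-PHOX had the widest spread, with a pooled SD within groups of 1.04. Control arrays read 8.10, 6.88, 4.89 and 5.94 at day 13 and 7.94, 8.62 and 6.72 at day 15. Estrogen arrays read 6.31, 6.05, 4.56 and 6.52, then 8.74, 8.53 and 9.80. The estrogen days did not overlap, and their means differed by 3.16 ± 0.69 (SE), or 8.97-fold. Of the 8 day 13 arrays, 5 lay under the dim limit of 6.35, where the size of a fold is uncertain. The estrogen day 13 mean (5.86 ± 0.89 SD, n = 4) was itself under that limit, so the probe set was kept for testing partly through its day 15 arrays. In control gilts the days overlapped and differed by 1.31 ± 0.69 (SE), and without the 3 arrays by 2.38 ± 0.64 (SE).

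As a list, all 7 genes were higher at day 15 in both treatments, as were 47.6% of all probe sets in control and 52.3% in estrogen gilts. Their median log2 difference was 1.09 in control gilts (range 0.51 to 1.73) and 1.80 in estrogen gilts (1.04 to 3.16), beside -0.02 and 0.02 over all 16754 probe sets tested. The medians without the 3 arrays were 1.53 and 2.11, beside 0.04 and 0.02. In control gilts 2 of the 8 member probe sets had days that did not overlap, where 1.74% of all probe sets did so upwards. In estrogen gilts it was 7 of 8, where 7.96% of all did. With the 3 arrays left out it was 7 of 8 in both, against 12% and 14.8% of all probe sets. These counts describe genes picked for this difference.

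In the fit of all 14 arrays, limma called 0 of 16754 probe sets (0%) between the days in control gilts. Its unadjusted p was under 0.05 for 656 (3.92%), among them 3 of the 8 member probe sets. In estrogen gilts it also called 0 (0%), with an unadjusted p under 0.05 for 1443 (8.61%). Pooled over both treatments it called 1 probe set (0.00597%), and that was MRC1. This call was lost with the replicate number as a term of the fit, and without any 1 of control day 13 replicate 2 or 4, estrogen day 13 replicate 3 or estrogen day 15 replicate 1 (limma called 0 probe sets in each, with 1090 to 1407 at an unadjusted p under 0.05). Without the 3 arrays it called 221 probe sets in estrogen gilts (1.32%), of which 6 are members, leaving out both of CD163. Pooled over treatments it then called 165 (0.985%), of which 7 are members, but in control gilts still 0 (0%), where 857 (5.12%) had an unadjusted p under 0.05. Estrogen day 15 then held only replicates 1 and 3, which had the highest scores of 5' loss (next paragraph). With that score as a covariate and the 3 arrays left out, limma called 0 probe sets in estrogen gilts (1171 at an unadjusted p under 0.05). Pooled, it called 4, with no member among them. Since these contrasts chose the genes, nothing is read from the members' share.

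RNA quality differed within the day 15 estrogen gilts. A score of the loss of 5' sequence, which averages how far the 3' probes of GAPDH, actin and EF1A exceed the 5' probes after each is standardised, was 1.88 and 1.44 on estrogen day 15 replicates 1 and 3, above the other 12 arrays (-1.32 to 0.49), while replicate 2 (-0.76) lay at the low end of the estrogen day 13 arrays (-0.75 to 0.05). The mean of the 7 genes correlated with this score with r = 0.46 over 14 arrays and 0.64 over the 11, as a description over arrays that share their groups. With the score as a covariate, the median of the 7 genes was 1.39 in estrogen and 1.06 in control gilts. The part of RNA quality in these differences was not tested.

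**Figure D2:**
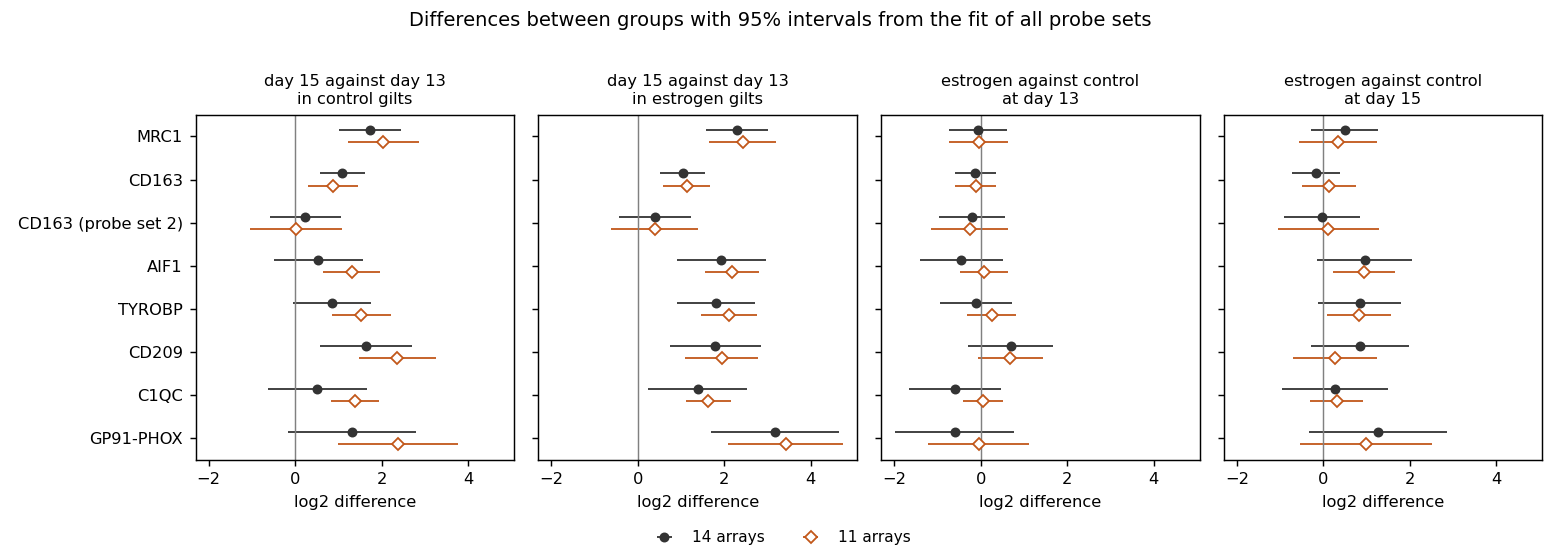
Each row is a probe set and each point the log2 difference between 2 groups with its 95% interval, from all 14 arrays (filled circles) and from the 11 without the arrays that stand apart (open diamonds). In both day comparisons the points lie to the right of 0, and without the 3 arrays the control intervals of AIF1, TYROBP, C1QC and GP91-PHOX no longer reach 0, while the intervals of estrogen against control include 0 for all 8 probe sets over 14 arrays. Over 11 arrays those of AIF1 (0.22 to 1.67) and TYROBP (0.09 to 1.57) at day 15 lie above 0.

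Estrogen against control asks whether the early estrogen left a mark on these genes. The day 15 estrogen arrays also belong to the comparison that chose the genes, and both estrogen effects share arrays with the day comparisons, so these values are not independent of the choice. At day 13, 6 of the 7 genes measured lower after estrogen and 1, CD209, higher, where 46.8% of all probe sets were higher. Their median difference was -0.12, beside -0.02 over all probe sets, and ranged from -0.60 for C1QC to 0.69 for CD209. No member probe set was called and none of their groups stood apart upwards, where 1.74% of all did. Over all probe sets limma called 0% at an adjusted p under 0.05 and 485 (2.89%) at an unadjusted p under 0.05, with no member among them. The adjusted p was 1.00 for each member in limma.

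Of these day 13 signs, 3 turned with 1 array. Without control day 13 replicate 1, which was among the 3 left out, AIF1 differed by 0.08 ± 0.25 (SE), TYROBP by 0.26 ± 0.26 (SE) and C1QC by 0.05 ± 0.21 (SE), all on the other side of 0. MRC1 (-0.05), CD163 (-0.11) and GP91-PHOX (-0.04) kept their sign, but MRC1 measured 0.10 without control day 13 replicate 3 and 0.13 without estrogen day 13 replicate 2. CD209 differed by 0.69 ± 0.34 (SE) without the 3 arrays, with a 95% interval of -0.06 to 1.43. Same-numbered arrays of the treatments deviated together at day 13 in their values. With the replicate number as a term of the fit the adjusted p of CD209 was 1.00 in limma, which called 0 probe sets (463 at an unadjusted p under 0.05). That fit over all 14 arrays also ties day 13 to day 15 arrays by number, so it is not a paired test of day 13. The intervals over all 14 arrays reached from -1.66 to 0.46 for C1QC and from -0.60 to 0.36 for CD163, so that a 2.13-fold difference such as that of CD163 between the days lay outside its interval.

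At day 15, 6 of the 7 genes measured higher after estrogen, as did 54.3% of all probe sets. GP91-PHOX differed by 1.26 ± 0.74 (SE), AIF1 by 0.96 ± 0.51 (SE), CD209 by 0.85 ± 0.53 (SE) and TYROBP by 0.84 ± 0.45 (SE). MRC1 differed by 0.50 ± 0.36 (SE), C1QC by 0.27 ± 0.57 (SE) and CD163 by -0.17 ± 0.26 (SE). None was called: adjusted p ran from 0.985 to 0.996 in limma, which called 0% of all probe sets, with 642 (3.83%) and no member at an unadjusted p under 0.05. In all 8 probe sets the treatments overlapped, where 4.12% of all probe sets stood apart upwards.

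The size at day 15 depended on the arrays. The median of the 7 genes was 0.84 with all arrays and 0.34 without the 3 that stand apart, and 0.20 without control day 15 replicate 3 alone. On the remaining 2 against 2 arrays AIF1 (0.95 ± 0.33 SE), TYROBP (0.83 ± 0.34 SE) and GP91-PHOX (0.99 ± 0.70 SE) no longer overlapped, where 18.6% of all probe sets did not either. The unadjusted p of AIF1 and TYROBP was then 0.0148 and 0.0303 (adjusted p = 0.54 and 0.58 in limma). Of all 16754 probe sets 1394 were then under 0.05. With RNA quality as a covariate the median was 0.25. The 95% intervals over 14 arrays, from -0.32 to 2.85 for GP91-PHOX and from -0.27 to 1.27 for MRC1, leave room for differences of either sign.

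Averaged over both days and with all arrays, CD209 was the only one of the 8 probe sets with an unadjusted p under 0.05 (0.0444, adjusted p = 1.00 in limma), at 0.77 ± 0.35 (SE). Of all probe sets 3.22% reached that level. CD209 measured above its control mean at both days, but without the 3 arrays the difference was 0.48 ± 0.28 (SE). AIF1 (0.51 ± 0.21 SE) and TYROBP (0.55 ± 0.21 SE) then had unadjusted p of 0.030 and 0.025 (adjusted p = 0.53 and 0.52 in limma). Of all 16754 probe sets, 1452 were then at an unadjusted p under 0.05 and 0 were called.

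Whether the step between the days differed between the treatments is the test of the difference itself. AIF1 (1.40 ± 0.68 SE), GP91-PHOX (1.86 ± 0.98 SE) and TYROBP (0.95 ± 0.60 SE) had the larger estimates, with a larger step after estrogen, and CD163 had nearly none (-0.05 ± 0.34 SE). Adjusted p ran from 0.990 to 0.998 in limma, with 0 of 8 member probe sets and 0% of all probe sets called, and 595 (3.55%) and no member at an unadjusted p under 0.05. The median of 0.87 over the 7 genes became 0.39 without the 3 arrays. This comparison contains the estrogen day step by which the genes were chosen, so its values are not independent of the choice. The intervals from all arrays ran from -0.05 to 2.86 for AIF1 and from -0.24 to 3.96 for GP91-PHOX. They include 0 but also large differences, so the fit cannot decide whether the step differed.

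On control day 13 replicate 1 the 7 genes divided. C1QC measured 2.61 above the mean of the other 3 arrays of its group, GP91-PHOX 2.20, AIF1 2.12 and TYROBP 1.47. MRC1 (0.03), CD163 (0.02) and CD209 (-0.03), which are the 3 surface receptors, did not move with them. Other leukocyte genes were also higher there: the mean of 7 pan leukocyte genes by 0.83, of 5 C1q, complement and Fc receptor genes by 1.03 and of 3 oxidase genes by 1.44. S100A9, the only neutrophil gene bright enough to test, differed by -2.98. The part of this array's overall deviation in these values was not tested.

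Control day 15 replicate 3 went the other way. CD209 differed by -2.19 from the others of its group, GP91-PHOX by -1.56, TYROBP by -0.94, MRC1 by -0.88, AIF1 by -0.75 and C1QC by -0.65, whereas CD163 differed by 0.66. The mean of the pan leukocyte genes differed by -1.01, of the T and natural killer cell genes by -1.11 and of the B and plasma cell genes by -1.58, while S100A9 differed by 3.81. Estrogen day 15 replicate 2 lay below its group for all 7 genes, with differences of -0.27 for CD163 to -0.92 for TYROBP. Its quality score was -0.76, against 1.88 and 1.44 on the other arrays of its group.

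**Figure D3:**
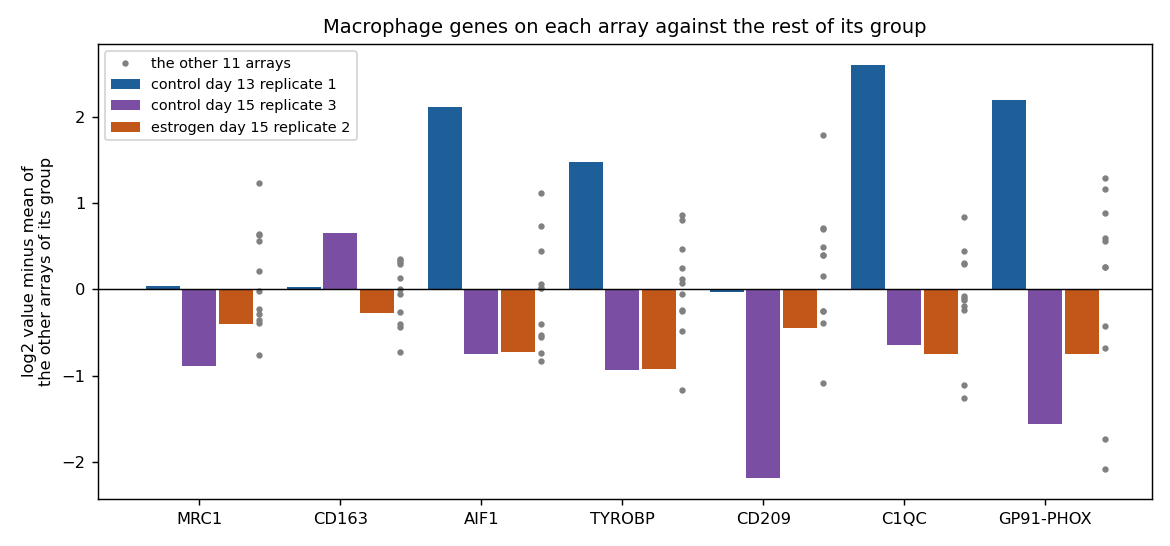
Bars show, for each gene, the log2 value on each of the 3 arrays that stand apart minus the mean of the other arrays of its group; grey dots show the same for the other 11 arrays. The bar of control day 13 replicate 1 reaches 1.47 to 2.61 for AIF1, TYROBP, C1QC and GP91-PHOX and lies at 0.03 or nearer to 0 for MRC1, CD163 and CD209.

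The rule used group means, so the deviations of the arrays from these means show whether the genes moved together beyond the day. Over 14 arrays the 21 pairs of genes had a median r of 0.34 (range -0.60 to 0.89), with 8 pairs over 0.5. AIF1, TYROBP and C1QC formed the closest trio (0.87 to 0.89), and MRC1 and CD209 correlated with 0.63. CD163 deviated apart from the rest: its r with the other 6 genes ran from -0.60 with CD209 to 0.04 with C1QC. These correlations describe arrays that share scaling and RNA quality.

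The trio was looser over 11 arrays. Without the 3 arrays the r of AIF1 with C1QC was 0.27, that of AIF1 with TYROBP 0.55 and that of TYROBP with C1QC 0.66, while that of MRC1 with C1QC went from 0.40 to 0.85. The median over the 21 pairs was then 0.27 (range -0.43 to 0.85), with 5 pairs over 0.5. The r of CD163 with the other 6 genes was then -0.43 to 0.36.

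**Figure D4:**
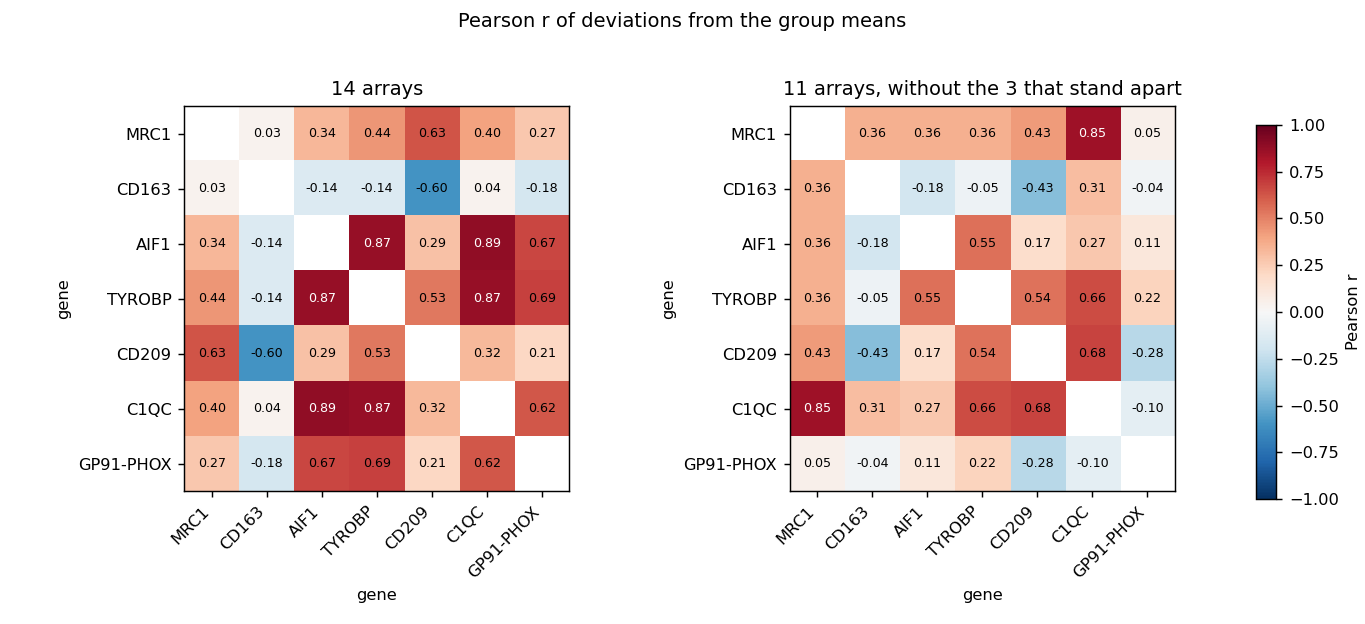
Each cell is Pearson's r between the deviations of 2 genes from their group means, over 14 arrays on the left and over the 11 without the arrays that stand apart on the right. AIF1, TYROBP and C1QC are at 0.87 to 0.89 on the left, and AIF1 and C1QC at 0.27 on the right; the row of CD163 is pale or blue on the left.

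The other genes of the macrophage pathways were taken from lists, each gene on its brightest probe set. Counts are of genes measured higher at day 15, and no gene of these lists was called over 14 arrays in limma. Calls in estrogen gilts without the 3 arrays, here and below, were lost with the RNA quality score as a covariate. Limma then called 0 probe sets. Over all probe sets and 14 arrays, its unadjusted p was under 0.05 for 3.92% in control and 8.61% in estrogen gilts. Of C1q, complement and Fc receptor genes, 5 of 5 were higher in both treatments, with medians of 0.44 in control and 0.95 in estrogen gilts (1.09 and 1.23 over 11 arrays), and 2 and 3 of them had an unadjusted p under 0.05. FCGR2B, the inhibitory Fc receptor, differed by 1.23 ± 0.37 (SE) and 1.46 ± 0.37 (SE). C1QA, another chain of C1q, differed by 0.44 ± 0.45 (SE) and 0.95 ± 0.45 (SE), and FCGR3A, the Fc receptor of phagocytes and natural killer cells, by 0.61 ± 0.26 (SE) and 0.43 ± 0.26 (SE). Without the 3 arrays, limma called 3 of the 5 in estrogen gilts (FCGR2B, ITGB2 and FCER1G, adjusted p = 0.0476, 0.0124 and 0.0396), where 0.776% of all probe sets were called higher. ITGB2 and FCER1G were named after their values were seen.

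The partners of GP91-PHOX in the oxidase gave smaller values. CYBA, the membrane subunit bound to GP91-PHOX, differed by -0.17 ± 0.34 (SE) in control and 0.50 ± 0.34 (SE) in estrogen gilts. NCF1, the cytosolic organiser, differed by 0.57 ± 0.82 (SE) and 1.40 ± 0.82 (SE), and the GTPase RAC2 by 0.36 ± 0.30 (SE) and 0.62 ± 0.30 (SE). The list median was 0.36 in control and 0.62 in estrogen gilts, with 0 of 3 called by limma with or without the 3 arrays and 0 at an unadjusted p under 0.05 over 14. Over 11 arrays the medians were 0.82 and 0.65. Adaptors and kinases of activating receptors had medians of -0.02 and 0.31 (0.12 and 0.47 over 11 arrays), with 2 and 4 of 5 higher. HCST, the other adaptor next to TYROBP in the genome, differed by -0.13 ± 0.28 (SE) and 0.31 ± 0.28 (SE), against 0.85 and 1.80 for TYROBP. The adaptor FCER1G, also in this list, was the 1 of the 5 that limma called higher in estrogen gilts without the 3 arrays. Of all probe sets 0.776% were called higher there. LYN, a kinase of immune receptors, differed by 0.47 ± 0.24 (SE) and 0.40 ± 0.24 (SE), and the inhibitory receptor SIRPA by -0.37 ± 0.24 (SE) and 0.23 ± 0.24 (SE).

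Scavenger and lectin receptors other than the members did not move as one. LYVE1, a hyaluronan receptor of lymphatics and some macrophages, differed by 0.79 ± 0.39 (SE) in control and 1.15 ± 0.39 (SE) in estrogen gilts. Its estrogen day 13 mean of 6.30 lay under the dim limit of 6.35. VSIG4, a complement receptor of resident macrophages, differed by 0.24 ± 0.31 (SE) and 0.37 ± 0.31 (SE), and SCARB1, the receptor for high-density lipoprotein, by 0.21 ± 0.30 (SE) and 0.38 ± 0.30 (SE). FOLR2, a folate receptor of resident macrophages, differed by -0.33 ± 0.37 (SE) and -0.38 ± 0.37 (SE). Medians were 0.22 and 0.37 (0.52 and 0.56 over 11 arrays), with 3 of 4 higher in each treatment.

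Genes that bring monocytes to a tissue and guide their development had small medians in control gilts. Monocyte recruitment genes had medians of 0.08 and 0.75 (0.00 and 0.91 over 11 arrays), with 5 and 8 of 8 higher and, in estrogen gilts, 3 at an unadjusted p under 0.05. ICAM1, the adhesion molecule on which leukocytes leave vessels, differed by 0.21 ± 0.58 (SE) and 1.11 ± 0.58 (SE), VCAM1 by 0.54 ± 0.39 (SE) and 0.34 ± 0.39 (SE), and the chemokine receptor CXCR4 by -0.92 ± 0.40 (SE) and 0.21 ± 0.40 (SE). In the list of the CSF1 axis and transcription factors (medians -0.13 and 0.41, or -0.04 and 0.73 over 11 arrays), IRF8, a factor of monocyte development, differed by 0.31 ± 0.38 (SE) and 1.33 ± 0.38 (SE). CEBPB (-0.13 and 0.13) and KLF4 (-0.40 and -0.41) were close to or below 0. Once the 3 arrays were left out, IRF8 and SPI1, the myeloid factor PU.1, were called in estrogen gilts (adjusted p = 0.0213 and 0.0224 in limma). SPI1 was named after its values were seen.

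Lysosome and phagosome genes, many of which are used by most cells, had medians of -0.08 and 0.14 (-0.05 and 0.27 over 11 arrays), with 7 and 10 of 14 higher. The protease CTSB differed by -0.18 ± 0.19 (SE) and 0.14 ± 0.19 (SE), and PSAP, the precursor of the saposins, by 0.12 ± 0.37 (SE) and -0.09 ± 0.37 (SE). CTSS, a cathepsin of antigen-presenting cells, was called without the 3 arrays in estrogen gilts (1.26, adjusted p = 0.0204 in limma) and was named after its values were seen. Iron and haem genes had medians of 0.66 and 0.25 (0.24 and 0.54 over 11 arrays), with 4 and 5 of 6 higher and 2 and 1 at an unadjusted p under 0.05. The ferritin chains FTH1 (-0.07 and 0.27) and FTL (-0.19 and 0.26) had SEs of 0.21 and 0.22, and the iron carrier TF (0.73 and 0.12) one of 0.96. The other 3 genes, named after their values were seen, were the haem oxygenase HMOX1 (0.70 and 0.23), the metal transporter SLC11A1 (0.63 and 1.06) and the transferrin receptor TFRC (1.14 and -1.06).

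Products of activated macrophages were mixed. Inflammatory products had medians of 0.26 and 0.41 (0.08 and 0.51 over 11 arrays), with 4 and 6 of 7 higher. IL1B differed by 0.26 ± 0.34 (SE) and 0.41 ± 0.34 (SE), the prostaglandin synthase PTGS2 by 1.40 ± 0.51 (SE) and 1.00 ± 0.51 (SE), and the chemokine CXCL2 by -1.01 ± 0.89 (SE) and 0.75 ± 0.89 (SE). Wound repair products had medians of 0.34 and 0.63 (0.43 and 0.45 over 11 arrays), with 4 of 6 higher in each treatment. In estrogen gilts 2 of the 6 were higher and 2 lower at an unadjusted p under 0.05 with all arrays. The lower ones were IGF1 and VEGFA, and the higher ones were among TGFB1, CHI3L1 and IL4R. TGFB1, CHI3L1, IL4R and SPP1 measured higher at day 15 in each treatment. Over 11 arrays limma called 1 of the 6 in estrogen gilts, higher at the later day. It was 1 of TGFB1, CHI3L1 and IL4R, whose single values are not given here. IGF1 differed by -0.34 ± 0.40 (SE) and -1.02 ± 0.40 (SE), VEGFA by -0.52 ± 0.28 (SE) and -0.69 ± 0.28 (SE), and SPP1 by 0.17 ± 0.70 (SE) and 0.31 ± 0.70 (SE). Other cells of the endometrium make PTGS2, IGF1, VEGFA and SPP1 as well.

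Other monocyte and macrophage markers had medians of 0.10 in control and 0.78 in estrogen gilts (0.27 and 0.78 over 11 arrays), with 6 and 7 of 10 higher and 0 and 5 at an unadjusted p under 0.05 upwards. CD86, a costimulatory ligand, differed by -0.04 ± 0.30 (SE) and 0.52 ± 0.30 (SE), and the endotoxin receptor genes TLR4 by 0.18 ± 0.41 (SE) and -0.25 ± 0.41 (SE) and LY96 by -0.43 ± 0.28 (SE) and 0.55 ± 0.28 (SE). Of these 10 genes, 3 were called in estrogen gilts without the 3 arrays: PLEK (2.70, adjusted p = 0.0321), LY86 (2.15, adjusted p = 0.0276) and ALOX5AP (1.88, adjusted p = 0.0321, all in limma). These were named after their values were seen.

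Markers of leukocytes in general were also higher at day 15. Pan leukocyte genes were higher in 7 of 7 in both treatments, with medians of 0.39 and 1.23 over 14 arrays and 0.90 and 1.44 over 11, and 1 and 5 of them had an unadjusted p under 0.05. Their summed signal ran from 1767 to 3380 in control gilts at day 13, 1833 to 3973 in control gilts at day 15, 1597 to 2138 in estrogen gilts at day 13 and 3853 to 6277 in estrogen gilts at day 15. The proteoglycan core SRGN differed by 0.80 ± 0.31 (SE) and 1.64 ± 0.31 (SE), ARHGDIB by 0.42 ± 0.43 (SE) and 1.49 ± 0.43 (SE), and CORO1A by 0.20 ± 0.29 (SE) and 0.27 ± 0.29 (SE). In limma 4 of the 7 were called in estrogen gilts once the 3 arrays were left out, where 0.776% of all probe sets were called higher. Whether the members' differences exceed those of leukocytes as a whole was not tested.

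Dendritic cell genes had medians of 0.39 and 0.82 (0.45 and 0.94 over 11 arrays), with 3 and 4 of 4 higher. CD83 differed by -0.49 ± 0.52 (SE) and 0.78 ± 0.52 (SE), FSCN1 by 0.47 ± 0.32 (SE) and 0.86 ± 0.32 (SE), the CD1A entry by 0.69 ± 0.35 (SE) and 1.16 ± 0.35 (SE), and XCR1 by 0.30 ± 0.21 (SE) and 0.31 ± 0.21 (SE). T and natural killer cell genes had medians of 0.19 and 0.37 (0.74 and 0.62 over 11 arrays), with CD3E at 0.37 ± 0.37 (SE) and 0.76 ± 0.37 (SE), CD8A at -0.04 and 0.42 and CD8B at 0.21 and 0.29. B and plasma cells were represented by BLNK (0.05 and 1.06) and JCHAIN (-0.34 and 0.02), with medians of -0.15 and 0.54 (0.58 and 0.50 over 11 arrays). Of 7 neutrophil genes on the array only S100A9 was bright enough to test, and it differed by -0.23 ± 1.38 (SE) and 0.18 ± 1.38 (SE), or -2.25 and -0.58 over 11 arrays. The mast cell list held MS4A2 (1.00 ± 0.45 SE and 1.90 ± 0.45 SE) and KIT (-0.66 ± 0.27 SE and -0.73 ± 0.27 SE), which went opposite ways. The day 13 means of MS4A2, 5.95 in control and 6.02 in estrogen gilts, lay under the dim limit of 6.35. It was therefore kept for testing partly through its day 15 arrays.

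Among the tissue's own cells, epithelial genes had medians of -0.28 and -0.01 (-0.26 and 0.12 over 11 arrays), with 7 of 9 lower in control gilts and 5 of 9 in estrogen gilts. Stromal fibroblast genes had medians of 0.21 and -0.07 (0.14 and 0.13). Endothelial genes had medians of 0.18 and -0.15 (0.26 and 0.05), with 7 of 7 and 3 of 7 higher. PECAM1 of endothelium differed by 0.46 ± 0.20 (SE) and 0.22 ± 0.20 (SE), and VIM of stroma by 0.16 ± 0.24 (SE) and 0.45 ± 0.24 (SE). In limma no gene of these 3 lists was called in either treatment, with or without the 3 arrays. At an unadjusted p under 0.05 over 14 arrays there were 1 epithelial gene, lower, and 1 endothelial gene, higher, in control gilts and 1 endothelial gene, higher, in estrogen gilts. The red blood cell genes HBB (0.18 and -0.08) and ALAS2 (0.37 and 0.52) had SEs of 0.21 and 0.30.

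**Figure D5:**
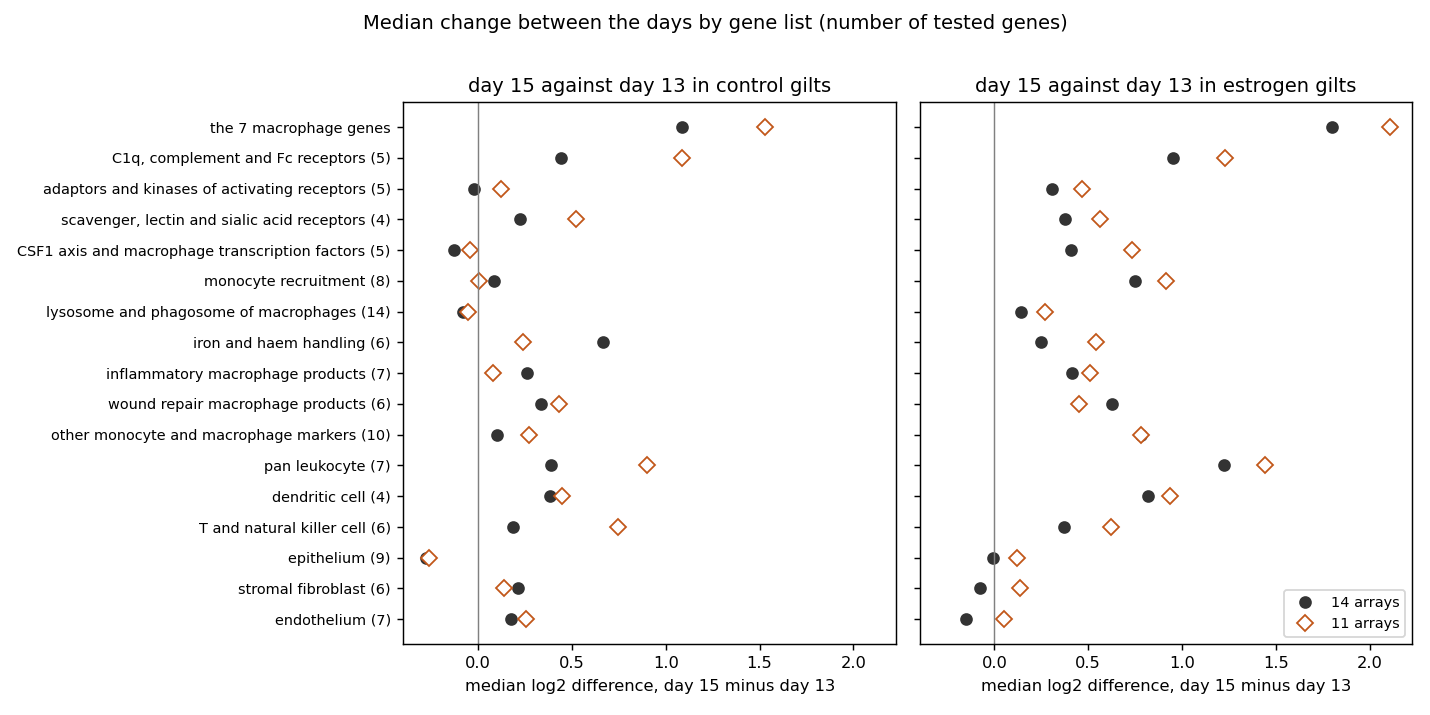
Each row is a gene list, and each point its median log2 difference of day 15 minus day 13 over the tested genes (their number in brackets), from 14 arrays (filled circles) and from 11 (open diamonds), in control gilts on the left and estrogen gilts on the right. The 7 macrophage genes lie farthest to the right, at 1.09 and 1.80 over 14 arrays, as they were chosen to, followed in estrogen gilts by pan leukocyte genes (1.23) and C1q, complement and Fc receptor genes (0.95).

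The genes most like the members were sought by the correlation of each named probe set with the mean of the 7 genes over the 14 arrays. Of 7965 named probe sets, with a median r of 0.07, 24 (0.301%) exceeded 0.9. Among them were the members TYROBP, GP91-PHOX, MRC1 and AIF1, which are themselves part of that mean. The 10 closest genes outside the members were GMFG (0.96), IL2RG (0.96), CD40 (0.95), SLA-DMB (0.95), SRGN (0.94), C3 (0.94), SLA-DQB1 (0.93), MS4A2 (0.93), ARRB2 (0.93) and SLC11A1 (0.93). With the group means taken out these stood at 0.72 for SLC11A1 to 0.94 for GMFG. Both day 13 means of MS4A2 lay under the dim limit of 6.35.

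GMFG, an actin regulator of blood cells, averaged 7.52 ± 0.79 (SD, n = 4) and 8.24 ± 0.84 (SD, n = 3) in control gilts, and 7.15 ± 0.27 (SD, n = 4) and 9.18 ± 0.63 (SD, n = 3) in estrogen gilts. C3, the central complement protein, averaged 11.09 ± 1.18 (SD, n = 4) and 12.12 ± 1.31 (SD, n = 3), then 10.63 ± 0.51 (SD, n = 4) and 13.04 ± 0.62 (SD, n = 3). Among these neighbours are the class II genes SLA-DMB and SLA-DQB1, which differed between the days by 0.83 and 0.65 in control gilts and by 1.53 and 1.91 in estrogen gilts.

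Each member also had its own nearest gene. C1QC ran closest to C1QA (r = 0.96 over 14 arrays), its neighbour in the pig reference order of genes. MRC1 and CD209 were both closest to FCGR2B (0.92 and 0.93), TYROBP to GMFG (0.97), AIF1 to CD40 (0.94) and GP91-PHOX to IL2RG (0.95). CD163 was closest to C1R (0.86), a complement protease, and its 5 nearest genes included no member. The member closest to the mean of the 7 genes, which contains each of them, was TYROBP (0.97) and the farthest CD163 (0.71). Over the 11 arrays the r of CD163 was 0.88, against 0.92 to 0.98 for the other 6.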

How the data were processed

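Endometrial RNA of 14 gilts was hybridised to Affymetrix porcine arrays, 1 array each, per the labels. The authors deposited 1 signal intensity per probe set and array on a linear scale; the software that made the intensities is not given in the sources used here. Each array had a 2% trimmed mean of 500.1. Of 24123 probe sets, 188 controls were left out, and the dimmest 30% by mean log2(signal + 16), under 6.35, which left 16754. Symbols came from the platform annotation, where 10099 probe sets had 1 symbol, 198 several and 13826 none; the 7 member genes matched the reference table.

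A single model of the 4 groups was fitted with lmFit and eBayes (with a trend) of limma 3.58.1 in R 4.3.3, with Benjamini-Hochberg adjustment over all probe sets and a threshold of 0.05, tested on simulated data. Python 3.11.15 with matplotlib 3.10.9 drew the figures. The members, lists and alternatives were chosen with earlier results of these data known. Named list genes were all of a list with 4 or fewer tested, otherwise the 3 brightest over all arrays; likeness was Pearson's r with the mean of the 7 genes. The 3 arrays that stand apart were those whose median correlation with the others fell short of the typical one by over 3 median absolute deviations. Replicate numbers are labelled but no label says that they pair gilts. In values, same-numbered arrays deviated together only between treatments at day 13 (r 0.13 to 0.28, all 8 arrays best with their own number), which is a pairing seen in the values and not given by the labels; it entered as an alternative, and p-values measure the spread between these gilts.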

Additional observations from a re-analysis of the deposited data

Results flagged for a closer look

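Each gene's groups of 4 arrays were looked at for a lone value, 16 groups in all. Chance marks about 1 in 20 such groups, and 2 were marked. AIF1 in control gilts at day 13 was 9.20 on replicate 1, a gap to the nearest other array of 0.90 of the group's range, against a limit of 0.83. C1QC in estrogen gilts at day 13 was 9.22 on replicate 4, a gap of 0.89 of a range that only spanned 8.91 to 9.22.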

How the results depend on the processing

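All 7 genes stayed higher at day 15 in each of the 180 alternative values per treatment. Signs of the estrogen effect held in 164 of 180 values at day 13, 174 of 180 at day 15, 167 of 173 over both days and 158 of 173 for the difference between days.

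Without the 3 arrays, the median of the 7 genes was 0.34 for estrogen at day 15, 1.82 for the pooled day and 0.39 for the difference of the estrogen effect; with the RNA quality covariate the first and last were 0.25 and 0.36. With both, the day medians were 2.47 in estrogen gilts and 1.99 pooled. Calls of members in estrogen gilts were 6 with only the groups compared (of 99 over all probe sets), 6 with array weights (of 168) and 6 without the 3 arrays (of 221). In estrogen gilts they were 0 with both the covariate and the 3 left out (of 0). Pooled calls were 7 with array weights (of 119), 7 without the 3 arrays (of 165), 0 with both the covariate and the 3 left out, and 0 with the replicate block. The block, tried although no label pairs the gilts, changed no other call of members. It ties same-numbered arrays of both days, although only those of day 13 deviated together. The causes of these shifts were not tested.

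Leaving out 1 array at a time gave 0 to 4 member calls in estrogen gilts (4 of 44 over all probe sets without control day 13 replicate 1, 1 of 1 or 3 without control day 15 replicate 2 or 3) and 0 to 6 pooled (6 of 101 without control day 13 replicate 1; 2 of 20 or 10 without control day 15 replicate 1 or 3; 0 without control day 13 replicate 2 or 4, estrogen day 13 replicate 3 or estrogen day 15 replicate 1). The median at day 15 ran from 0.20 to 1.13. Ranges that crossed 0 were, at day 13, MRC1 -0.20 to 0.13, AIF1 -0.65 to 0.08, TYROBP -0.40 to 0.26 and C1QC -0.92 to 0.05. At day 15 CD163 ran from -0.30 to 0.05, over both days C1QC from -0.32 to 0.16, and for the difference CD163 from -0.18 to 0.17 and CD209 from -0.57 to 0.75.

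Other turned signs at day 13 were TYROBP 0.085 and GP91-PHOX 0.13 with array weights, AIF1 0.083, TYROBP 0.26 and C1QC 0.050 without the 3 arrays, MRC1 0.0070 and TYROBP 0.0076 with the covariate, and AIF1 0.0046, TYROBP 0.20 and C1QC 0.025 with both. At day 15 these were CD163 0.020 (weights), 0.14 (without the 3) and 0.41 (both), C1QC -0.13 (covariate) and CD209 -0.28 (both). Over both days they were C1QC 0.029 (weights), CD163 0.013 and C1QC 0.18 (without the 3), and CD163 0.12 and C1QC 0.24 (both). For the difference, CD163 and CD209 were 0.14 and -0.12 (weights), 0.25 and -0.42 (without the 3), 0.034 and -0.64 (covariate) and 0.57 and -1.06 (both).

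Leaving out the dimmest 50% removed CD209 and GP91-PHOX. GP91-PHOX at day 13 is limited by dimness. The fit of only the groups compared was not run for comparisons that use all groups.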
